A study of Mus musculus with 8 samples.

Results

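Messenger RNA of 9 genes of the neural extracellular matrix was followed in whole retinas of Rbfox2 KD and control mice. The genes encode the tenascins *Tnr* and *Tnc*, the lecticans *Acan*, *Bcan*, *Ncan* and *Vcan*, the link proteins *Hapln1* and *Hapln4*, and the receptor phosphatase *Ptprz1*. They were chosen by name and make up 9 of the 17500 genes of the deposited count table. All 9 passed the filter on low counts, which left 16797 genes for testing. *Tnr* had been picked out by the study on these same mice, so its difference here is not independent evidence.

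Each of the 8 mice gave 1 poly(A) library, and all were 6 months old on a C57BL/6J background. The Rbfox2 KD mice (M893, M901, M902 and M909) carried *Rbfox2* fl/fl and a Cre recombinase that tamoxifen activates and that is not restricted to 1 cell type of the retina. The control mice (M833, M894, M896 and M898) were heterozygous, *Rbfox2* fl/+, so that both groups held a floxed allele. The labels of both groups name tamoxifen with 4 months, which in the study's methods is the time between a short course of tamoxifen and the collection of the Rbfox2 KD retinas, and whether the controls carried Cre is not given in the sources used here. *Rbfox2*, which encodes an RNA-binding splicing factor, had 53.6 to 59.4 CPM (counts scaled to the TMM-normalized library size) in the Rbfox2 KD libraries and 143.8 to 157 CPM in the controls, so that 37.7% of the control mean remained.

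Between 160630226 and 211283591 reads per library were counted on genes, and 3 counts corresponded to 0.0144 to 0.0189 CPM. Differences between the groups are log2 fold changes of Rbfox2 KD relative to control from edgeR's quasi-likelihood test fitted on all genes. M901 and M902 stood apart from the other 6 libraries. They had 1440 and 1739 CPM of *Xist*, the RNA made from the inactive X chromosome, against 1.71 to 2.22 CPM in the others, and they were set apart on the first principal component (50% of the variance). M909 was separated by the second component (18.7%) and had 39.4 CPM of summed markers of surface epithelium, against at most 4.46 CPM in the others. In M901 and M902 the Y-linked genes *Uty*, *Eif2s3y*, *Kdm5d* and *Ddx3y* were at least 191 times below every other mouse. By *Xist* and these genes M901 and M902 were female and the other 6 mice, among them all 4 controls, male. The labels give no sex. Both M901 and M902 are Rbfox2 KD, so sex was not balanced between the groups. The values of the 9 matrix genes, and the calls in the functional lists, are therefore also given without them.

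The matrix between neurons and glia is built on hyaluronan, a long sugar chain. Lecticans, which are chondroitin sulfate proteoglycans, bind hyaluronan at one end, link proteins lock that bond, and tenascin-R cross-links the other ends of the lecticans. Dense coats of this kind around some neurons are called perineuronal nets, while looser forms of the same molecules fill the plexiform layers of the retina. Rbfox proteins bind the RNA element UGCAUG, or GCAUG, in exons and introns to regulate splicing and in 3′ UTRs, where they can affect the stability of the transcript.

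Copies of the longer form (searched as TGCATG on the sense strand) were located in the longest coding GENCODE M21 transcript of each gene. They are shown because they are among the sequences through which an Rbfox protein can contact these transcripts. The 3′ UTR held it in 5 of the 9 genes, against 35.4% of the 14832 tested genes with an annotated 3′ UTR. The coding sequence held it in 5 of the 9 genes, against 30.9% of 14925. These shares were not matched for length, and the 3′ UTRs of the members ran from 341 bases in *Bcan* to 7516 in *Tnr*. *Bcan* had no copy in either part. Introns, and GCATG without the first T, were not searched. Capitals mark the element, positions are those of its 6 bases on GRCm38, and each stretch is written 5′ to 3′ along the transcript. Those of the 3′ UTRs shown lay at chr1:159927218-159927223 (+ strand, *Tnr*), chr13:89609839-89609844 (+ strand, *Hapln1*), chr8:70090009-70090014 (+ strand, *Hapln4*) and chr6:23052777-23052782 (+ strand, *Ptprz1*), each in the last exon.
*Tnr* 3′ UTR: ctccctcttTGCATGccccatcat
*Hapln1* 3′ UTR: ccatgacaaTGCATGaagttataa
*Hapln4* 3′ UTR: ccatccattTGCATGctaacttta
*Ptprz1* 3′ UTR: ccctgtttcTGCATGtcattttga

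In coding sequence, *Ptprz1* had 4 copies, all in exon 12 of 30, a single exon of 3547 bases. The 3 copies shown lay on the + strand at chr6:23000317-23000322, chr6:23000503-23000508 and chr6:23000695-23000700, up to 378 bases from the first.
*Ptprz1* coding copy 1: attcggcctTGCATGctacgcctg
*Ptprz1* coding copy 2: agctgtcttTGCATGcttctctgc
*Ptprz1* coding copy 3: atgttgttaTGCATGcatactctt

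*Vcan* had 2 copies on the - strand, at chr13:89693409-89693414 in exon 8 of 15, which is 5217 bases long, and at chr13:89657507-89657512 in exon 14. *Acan* had 2 copies, and *Tnc* and *Ncan* had 1 each. Those of *Ptprz1* are shown because it had the most coding copies, and those of *Vcan* because its level differed most in size between the groups.
Coding copy 1 of *Vcan*: cagatccacTGCATGatctgtttg
Coding copy 2 of *Vcan*: aaaataaccTGCATGaacccatct

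*Tnr* was the only member whose groups did not overlap. This gene (chr1:159523769-159931729, + strand) encodes tenascin-R, a glycoprotein largely restricted to the nervous system. Its levels were 101, 91.7, 94.3 and 97.5 CPM in the control mice (in the order M833, M894, M896, M898, as for every gene below), and 80.5, 82.3, 73.2 and 87.0 CPM in the Rbfox2 KD mice (in the order M893, M901, M902, M909). Every Rbfox2 KD retina was thus below every control, and the lowest value was that of M902. The means were 96.2 ± 4.17 and 80.7 ± 5.73 CPM (SD, n = 4 each), so that 83.9% of the control level remained. The log2 fold change was -0.25 (standard error 0.054, 95% interval -0.37 to -0.13), with an unadjusted p of 0.000822, the 104th lowest of all genes. After Benjamini-Hochberg adjustment in the quasi-likelihood test, p was 0.13, which misses the threshold of 0.05. DESeq2 (adjusted p = 0.00283) and edgeR's likelihood ratio test (adjusted p = 0.0206) on the same genes did call it, and these tests called 2.8% and 0.976% of all genes tested, against 0.0655% for the quasi-likelihood test. An exact two-sided permutation test over the 70 groupings of 8 mice gave p = 0.0286, the smallest that 4 mice against 4 allow. Without M901 and M902 the log2 fold change was -0.20 (unadjusted p = 0.00629).

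**Figure D1:**
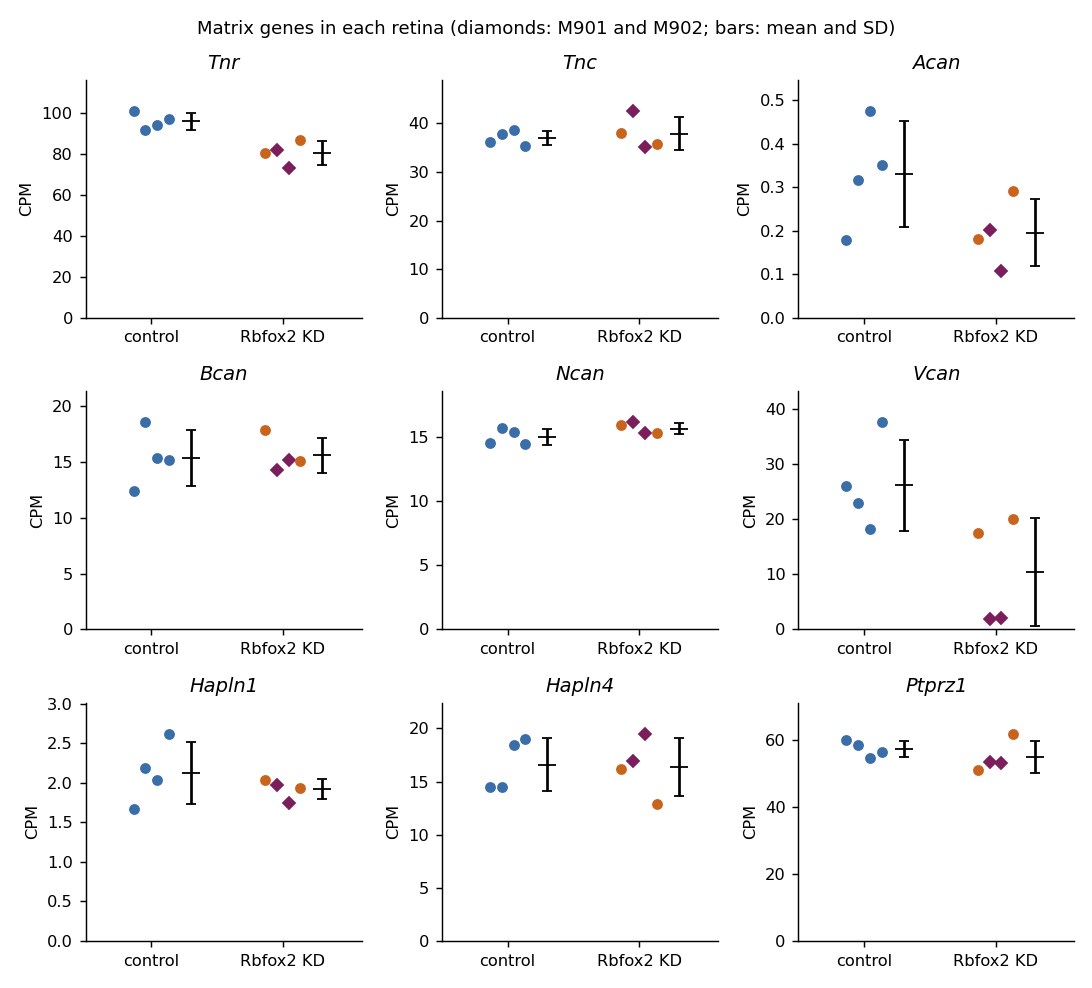
CPM of the 9 matrix genes (vertical axes, each from 0) in each control retina (blue) and Rbfox2 KD retina (orange circles, with M901 and M902 as purple diamonds), with the mean and SD of each group of 4. *Tnr* separates the groups, at 91.7 to 101 against 73.2 to 87.0 CPM, and *Vcan* is at 1.93 and 2.12 CPM in M901 and M902 and between 17.6 and 37.7 CPM elsewhere.

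In bulk retina, fewer cells of a type and less RNA per cell cannot be told apart. Summed markers of horizontal cells also separated the groups, with 99.6 to 106 CPM in controls and 81.6 to 85.6 CPM in Rbfox2 KD, mostly through *Calb1* (calbindin), 1 of the 4 markers and the only one of them lower at an unadjusted p under 0.05. *Onecut1* and *Onecut2* had log2 fold changes of -0.13 and -0.20, and *Lhx1*, which marks the same cells, 0.18 (unadjusted p = 0.0376). The sum of 5 cone markers separated the groups in the other direction. It was 808.1 to 820.5 CPM in controls and 861 to 984.9 CPM in Rbfox2 KD, with 1 of the 5 lower and 1 higher at an unadjusted p under 0.05. The 6 Müller glia markers summed to 5200 to 5680 CPM in controls and 4748 to 5113 CPM in Rbfox2 KD. Most of this sum was *Glul*, with a control mean of 3384 CPM. Of the 6, *Glul* and *Dkk3* had an unadjusted p under 0.05, both lower, *Dkk3* only with M901 and M902 included (unadjusted p = 0.388 without them). *Rlbp1*, *Slc1a3*, *Kcnj10* and *Sox9* had log2 fold changes of 0.05, -0.04, 0.0056 and -0.0028. Markers of the oligodendrocyte lineage, a known source of tenascin-R in the brain, summed to 62.4 to 65.8 CPM in controls and 62.1 to 67.6 CPM in Rbfox2 KD, with *Mog*, *Mobp* and *Olig2* not among the genes of the table. The part of these cell types in the *Tnr* difference was not tested. In GENCODE M21, 3.44% of the exon bases of *Tnr* and 2.26% of those of *Tnc* are shared with a gene on the opposite strand, and whether the counting used strand is not given in the sources used here.

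*Tnc* (chr4:63959785-64047015, - strand) encodes tenascin-C, the larger relative of tenascin-R that is most prominent in development and after injury. Its levels were 36.1, 37.8, 38.6 and 35.5 CPM in the controls and 38.1, 42.6, 35.2 and 35.7 CPM in the Rbfox2 KD mice. The ranges overlapped, and M901 alone stood above the controls. The log2 fold change was 0.04 (95% interval -0.10 to 0.17, unadjusted p = 0.585), and -0.0066 without M901 and M902. The ratio of *Tnr* to *Tnc*, taken per length from FPKM (fragments scaled to the length of the gene model and to the library size), lay between 3.19 and 3.69 in controls and was 2.78, 2.54, 2.73 and 3.21 in the Rbfox2 KD mice, so that M909 overlapped the controls. With the full annotated exon length of each gene the ratio was 1.47 to 1.69 in controls and 1.28, 1.17, 1.25 and 1.47 in the Rbfox2 KD mice, so its size depends on the length assumed.

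Among the lecticans, *Vcan* differed most in size, and this rested on 2 mice. The gene (chr13:89655312-89742509, - strand) encodes versican, the most widely expressed lectican and also the chondroitin sulfate proteoglycan of the vitreous. Control retinas had 26.1, 22.9, 18.2 and 37.7 CPM, and the Rbfox2 KD retinas had 17.6 (M893), 1.93 (M901), 2.12 (M902) and 20.1 CPM (M909). M901 and M902 were far below all others, M893 lay just under the lowest control, and M909 lay within the control range. The control mean was 12.9 times the mean of M901 and M902 and 1.39 times that of M893 and M909. Over all 8 mice the log2 fold change was -1.33 (standard error 0.68, 95% interval -2.85 to 0.19, adjusted p = 0.431), and without M901 and M902 it was -0.48 (standard error 0.25, unadjusted p = 0.0867). The exact permutation test gave p = 0.0571.

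Few genes were as low in these 2 mice. Of 13756 tested genes with a mean of at least 1 CPM, 22 (0.16%) were at least 5 times lower in both M901 and M902 than in every other mouse, and *Vcan* ranked 15th of them, 8.3 times below. The 22 were picked out after their values were seen, and included 4 genes of the Y chromosome (*Uty*, *Eif2s3y*, *Kdm5d* and *Ddx3y*), the matrix genes *Fbln1*, *Ltbp2*, *Mfap4*, *Ogn* and *Matn2*, and 2 markers of the ciliary body list. *Optc*, which encodes opticin, a proteoglycan of the vitreous made by the ciliary epithelium, had 36.0 to 61.0 CPM in controls, 41.3 in M893, 47.4 in M909, and 2.11 and 2.04 in M901 and M902. *Best2*, a channel of the nonpigmented ciliary epithelium, had 5.13 to 16.0 CPM in controls, 4.26 in M893, 4.14 in M909, and 0.15 and 0.208 in M901 and M902.

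Of the 10 markers of ciliary body and pigment epithelium, 7 were lower in both M901 and M902 than in every other mouse. Their sum was 53.9 CPM in M901 and 86.8 CPM in M902, against 115.9 to 511 CPM in controls and 180.7 and 206 CPM in M893 and M909, and none of the 10 was at 0. *Rpe65*, of the pigment epithelium, was not part of this pattern, with 7.46 and 12.3 CPM in M901 and M902 and 9.35 to 20.1 CPM in the others. Nor was *Ttr*, another of the 10, with a control mean of 41.9 CPM. That was 0.97 times the mean of M901 and M902 and 0.63 times that of M893 and M909. The sum thus includes markers outside the pattern. The 5 markers of fibroblasts and sclera summed to 6.12 and 7.48 CPM in M901 and M902, 14.1 to 23.4 CPM in controls, and 17.5 and 18.7 CPM in M893 and M909, with 3 of 5 below every other mouse in both. The part of these tissues in the *Vcan* difference was not tested. Since M901 and M902 also differ from all other mice in *Xist* and Y-linked genes, that difference and their low *Vcan* cannot be told apart.

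**Figure D2:**
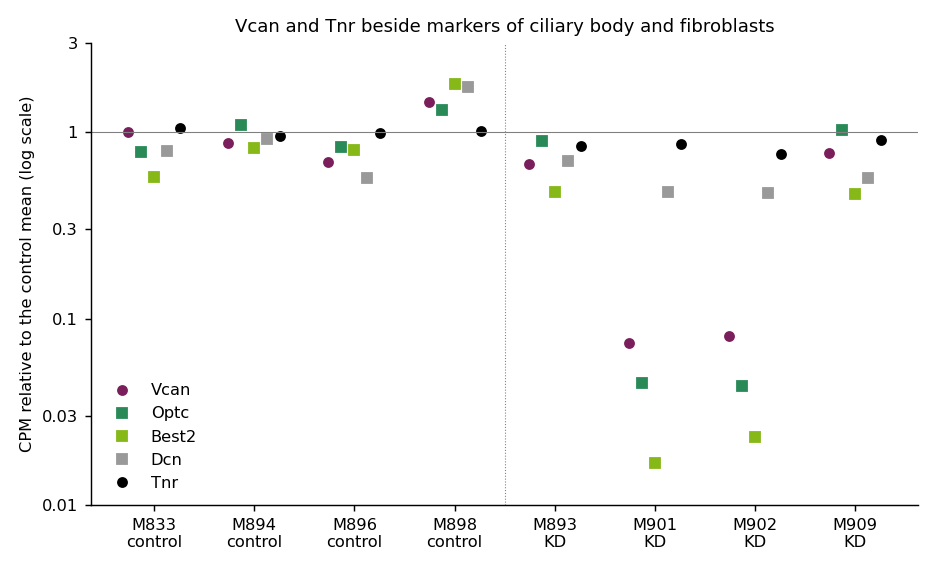
CPM relative to the control mean (vertical axis, log scale) of *Vcan* and *Tnr* (circles), the ciliary markers *Optc* and *Best2* and the fibroblast marker *Dcn* (squares) in each of 8 retinas, 1 library each. *Vcan*, *Optc* and *Best2* are all low in M901 and M902, where the control mean is 12.9, 22.4 and 49.6 times higher, while *Tnr* in these mice is at 82.3 and 73.2 CPM.

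*Bcan* (chr3:87987531-88000230, - strand) encodes brevican, a lectican confined to the nervous system. Its levels were 12.5, 18.6, 15.4 and 15.2 CPM in controls and 17.9, 14.3, 15.2 and 15.1 CPM in Rbfox2 KD, every Rbfox2 KD retina lying within the control range. The log2 fold change was 0.02 (95% interval -0.23 to 0.27, unadjusted p = 0.866), and 0.10 without M901 and M902. *Ncan* (chr8:70093085-70120873, - strand), which encodes neurocan, also of the nervous system, had 14.5, 15.6, 15.4 and 14.4 CPM in controls and 15.9, 16.1, 15.3 and 15.3 CPM in Rbfox2 KD. M893 and M901 were above all controls by less than 1 CPM. The log2 fold change of *Ncan* was 0.06 (95% interval -0.05 to 0.17, unadjusted p = 0.239), and 0.05 without M901 and M902. Neither interval reached the fitted value of *Vcan* (-1.33), but the interval of *Vcan* (-2.85 to 0.19) held the fitted values of both. The fit thus does not set *Vcan* apart from them.

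*Acan* (chr7:79053483-79115099, + strand) encodes aggrecan, the lectican of cartilage and of perineuronal nets, and was barely detected. It had 37, 56, 91 and 62 counts in the control libraries and 32, 39, 17 and 56 in the Rbfox2 KD libraries, or 0.178 to 0.475 and 0.107 to 0.292 CPM. M833 overlapped the Rbfox2 KD mice, and the lowest value was that of M902. The log2 fold change was -0.74 (standard error 0.36, 95% interval -1.54 to 0.06, unadjusted p = 0.0667), and -0.48 without M901 and M902. At these counts a difference between the groups was not detectable beyond the spread between mice.

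The composition of the lectican pool differed between mice mainly through *Vcan*. On the FPKM scale *Vcan* made up 37.7 to 56.4% of the summed lectican transcripts in controls, 34.4% in M893, 40.6% in M909, and 6.28 and 6.72% in M901 and M902. *Bcan* made up 30.2 to 43.1% in controls and 61.6 and 63.8% in M901 and M902, where the sum of the 4 lecticans was 7.0 and 7.18 FPKM, against 11.2 to 15.7 in the other mice. These shares depend on the gene model behind the deposited FPKM, which is short for *Vcan*. With all annotated exons as the length, *Vcan* made up 17.4 to 31.0% in controls, 15.5% in M893, 19.1% in M909, and 2.26 and 2.44% in M901 and M902, and *Bcan*, at 44.3 to 54.6% in controls, exceeded *Vcan* in every mouse.

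**Figure D3:**
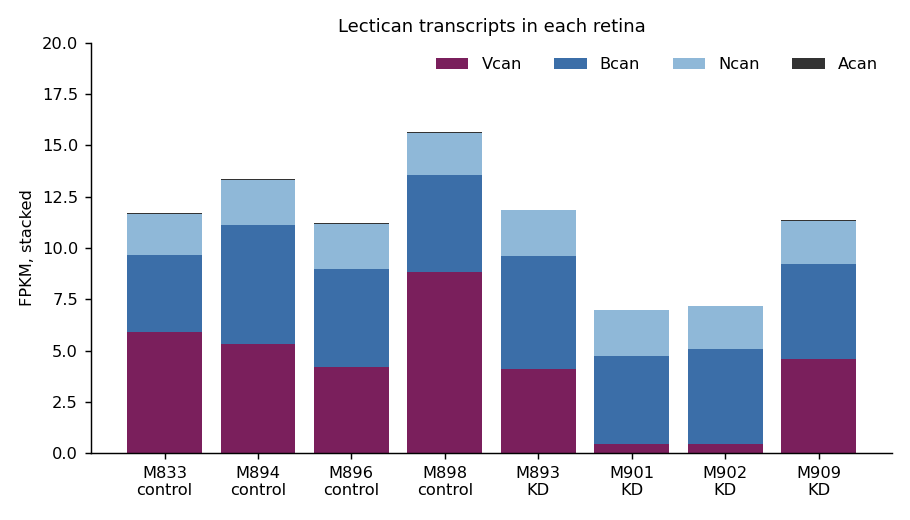
Deposited FPKM of the 4 lecticans, stacked, in each retina (1 library each). *Acan* is too low to form a visible layer, and the *Vcan* layer shrinks to 6.28 and 6.72% of the sum in M901 and M902, or to 2.26 and 2.44% where all annotated exons are taken as the gene length.

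Of the link proteins, the brain-type *Hapln4* (chr8:70083457-70090862, + strand), a partner of brevican, had 14.5, 14.5, 18.5 and 19.0 CPM in controls and 16.2, 17.0, 19.5 and 12.9 CPM in Rbfox2 KD. Rbfox2 KD retinas lay on both sides of the controls, M902 at the top and M909 at the bottom. The log2 fold change was -0.02 (95% interval -0.32 to 0.27, unadjusted p = 0.881), and -0.20 without M901 and M902 (unadjusted p = 0.210). *Hapln1* (chr13:89539796-89611652, + strand), the cartilage link protein that is also a component of perineuronal nets, had 1.67, 2.18, 2.04 and 2.62 CPM in controls and 2.04, 1.97, 1.74 and 1.94 CPM in Rbfox2 KD. All 4 Rbfox2 KD retinas lay inside the control range. The log2 fold change of *Hapln1* was -0.15 (95% interval -0.46 to 0.17, unadjusted p = 0.324), and -0.10 without M901 and M902.

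Each lectican gene lies beside a link protein gene. *Vcan* and *Hapln1* are separated by 43659 bases on chromosome 13, *Bcan* and *Hapln2* by 21519 bases on chromosome 3, *Ncan* and *Hapln4* by 2222 bases on chromosome 8, and *Acan* and *Hapln3* by 2 bases on chromosome 7, where they are read towards each other. *Hapln1*, unlike its neighbour *Vcan*, lay in M901 and M902 (1.97 and 1.74 CPM) within the range of the other mice (1.67 to 2.62 CPM). *Hapln2*, which encodes a link protein of nodes of Ranvier and lies beside *Bcan*, had 0.202 and 0.239 CPM in M901 and M902 and 0.396 to 0.456 CPM in the other 6 mice. Its log2 fold change was -0.48 (unadjusted p = 0.0946), and -0.09 without M901 and M902. *Hapln3*, beside *Acan*, had a log2 fold change of 0.05 (unadjusted p = 0.782).

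*Ptprz1* (chr6:22875502-23052916, + strand) encodes a receptor tyrosine phosphatase of glia whose secreted form, phosphacan, binds tenascins and neuronal contactins. Its levels were 59.8, 58.4, 54.4 and 56.3 CPM in controls and 51.0, 53.4, 53.1 and 61.7 CPM in Rbfox2 KD. M893, M901 and M902 were below all controls and M909 was above all controls, so that the groups overlapped. The log2 fold change was -0.06 (95% interval -0.20 to 0.07, unadjusted p = 0.329), and -0.02 without M901 and M902 (unadjusted p = 0.766). Without M909 it was -0.12 (unadjusted p = 0.0165), in a fit where 2992 of all 16840 genes tested had an unadjusted p under 0.05.

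Of the 9 genes, 0 had an adjusted p under 0.05 by edgeR's quasi-likelihood test and 0 by limma-voom, and DESeq2 and the likelihood ratio test each called 1, *Tnr*. At an unadjusted p under 0.05, 1 of 9 was lower (*Tnr*) and 0 were higher, against 6.87% and 6.42% of all genes. Groups did not overlap, with Rbfox2 KD below, in 1 of 9, against 3.39% of all genes, and with Rbfox2 KD above in 0, against 3.64%. The fitted change was below 0 in 6 of 9 genes, and the median log2 fold change was -0.06, where that over all genes tested was 0.0016. Without M901 and M902, 1 of 9 was lower at an unadjusted p under 0.05, again *Tnr*, against 2.46% of all genes, and 0 were higher, against 3.55%.

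**Figure D4:**
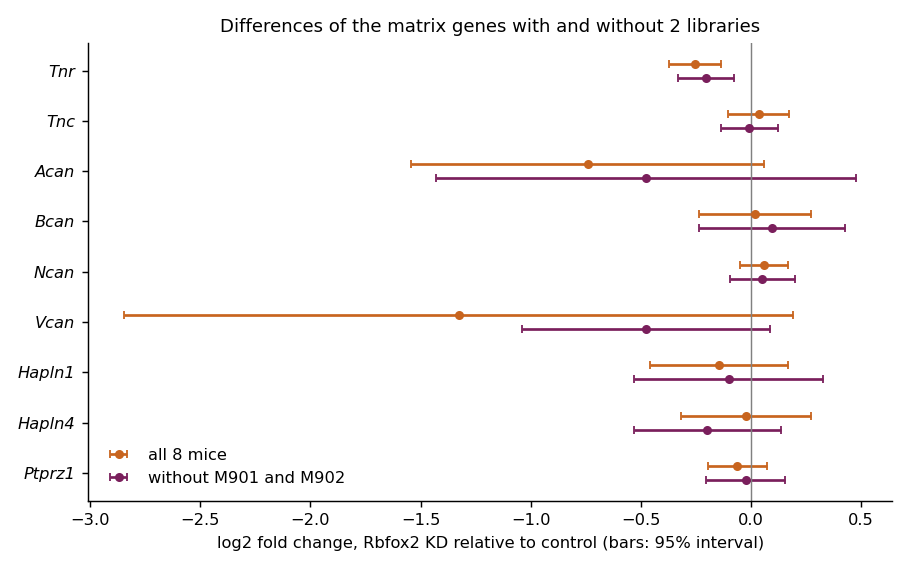
Log2 fold change of Rbfox2 KD relative to control (horizontal axis) with its 95% interval from edgeR's quasi-likelihood fit for the 9 matrix genes, over all 8 mice (orange) and without M901 and M902 (purple). The interval of *Tnr* stays below 0 in both fits, at -0.25 and -0.20, and that of *Vcan* spans 0 in both, at -1.33 and -0.48.

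Levels between genes were compared per length, from the deposited FPKM. *Tnr* was the most abundant of the 9 in control retinas, with 17.9 ± 0.614 FPKM (SD, n = 4), and stood above 75.3% of the genes in the table. *Ptprz1* (7.13 ± 0.239 FPKM), *Vcan* (6.09 ± 1.96), *Tnc* (5.24 ± 0.234), *Bcan* (4.75 ± 0.817) and *Hapln4* (4.67 ± 0.735) followed. Over the 4 controls, *Ptprz1* overlapped *Vcan* and lay above *Tnc*, *Bcan* and *Hapln4*, while *Vcan*, *Tnc*, *Bcan* and *Hapln4* each overlapped the next in this order, so that their order is not resolved. *Ncan* (2.11 ± 0.10 FPKM), *Hapln1* (0.424 ± 0.0834) and *Acan* (0.0453 ± 0.0171) came last in that order in all 4 controls without overlap. In Rbfox2 KD retinas *Tnr* was still highest, at 14.9 ± 1.09 FPKM. The places of *Vcan* and *Ptprz1* depended on the length assumed. The deposited FPKM imply a gene model of 4335 bases for *Vcan*, 8068 for *Ptprz1* and 5395 for *Tnr*. The annotated exons of GENCODE M21 span 14462, 14245 and 12867 bases. With the latter, *Tnr* stayed first at 7.52 ± 0.258, *Tnc* came second at 4.79 ± 0.214, and *Vcan* went from the third place to the seventh, at 1.82 ± 0.588. *Ptprz1* went from the 2nd place to the 4th. Its controls (3.855 to 4.148) then lay below those of *Tnc* (4.578 to 5.019) and overlapped those of *Hapln4* (3.628 to 4.922) and *Bcan* (3.018 to 4.626).

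Genes that make, modify, cut or bind this matrix were taken from lists chosen by function, 91 symbols in all, of which 86 were tested. Of these, 0 had an adjusted p under 0.05 by edgeR's quasi-likelihood test, 11 were lower and 5 higher at an unadjusted p under 0.05 (12.8% and 5.81%, against 6.87% and 6.42% of all genes), and the median log2 fold change was -0.05. Groups did not overlap in 4 of the 86 with Rbfox2 KD below and in 2 with Rbfox2 KD above, against 3.39% and 3.64% of all genes. Only the 16 genes at an unadjusted p under 0.05 were looked up for calls by DESeq2 and the likelihood ratio test. Of these, DESeq2 called *Chst3*, *Gpc6*, *Adamts9*, *Csgalnact1* and *Egfr* at an adjusted p under 0.05, and the likelihood ratio test called *Chst3*. These tests called 2.8% and 0.976% of all genes tested. Without M901 and M902, 4 of the 86 were lower and 6 higher at an unadjusted p under 0.05, against 2.46% and 3.55% of all genes in that fit. The 4 lower genes, *Gpc6*, *Adamts9*, *Csgalnact1* and *Lyve1*, were among the 11, while *Stab1* (unadjusted p = 0.142), *Dcn* (0.132), *Mdk* (0.189), *Tnxb* (0.094), *Egfr* (0.0823), *Xylt2* (0.109) and *Chsy3* (0.112) were not called. Of the 5 higher genes 4 were called in both fits, *Impg1* was not (unadjusted p = 0.103), and *Cd44* and *Adamts4* were added.

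The enzymes of chondroitin sulfate synthesis, which build the sugar chains that lecticans and phosphacan carry, had 3 lower and 2 higher of 20 tested (15% and 10%, against 6.87% and 6.42% of all genes). Groups did not overlap in 1 of the 20 with Rbfox2 KD below and in 2 with Rbfox2 KD above, against 3.39% and 3.64% of all genes. The counts per list were not tested against these shares. *Chst3*, the sulfotransferase that adds sulfate at the 6 position of chondroitin, had 57.2, 60.1, 47.9 and 51.2 CPM in controls and 65.0, 75.8, 70.9 and 77.4 CPM in Rbfox2 KD. Every Rbfox2 KD retina was above every control, at 134% of the control mean, and the log2 fold change was 0.42 (standard error 0.078, unadjusted p = 0.000314, adjusted p = 0.0926), or 0.39 without M901 and M902. *Csgalnact1*, which starts the chondroitin chain, was lower in all 4 Rbfox2 KD retinas (5.89 to 6.12 CPM against 6.73 to 7.04 CPM). *B3galt6*, which builds the linker between chain and protein, was higher in all 4 (17.4 to 19.5 CPM against 15.4 to 17.3 CPM). *Xylt2*, which starts the linker, and the chondroitin synthase *Chsy3* were lower at an unadjusted p of 0.0314 and 0.044, with ranges that overlapped or met, and *Chsy3* was at -0.27 without M898 (unadjusted p = 0.153).

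Of 11 other proteoglycans of neural tissue, 2 were lower and 0 higher, where 6.87% and 6.42% of all genes were lower and higher. *Gpc6* (glypican-6, a heparan sulfate proteoglycan of the cell surface) had 36.5 to 38.9 CPM in controls and 32.0 to 34.0 CPM in Rbfox2 KD, without overlap, and a log2 fold change of -0.19. *Dcn* (decorin) had a log2 fold change of -0.85 with overlapping groups, and -0.45 without M898, its highest control. Of 11 proteases that cut lecticans and their inhibitor, 1 was lower: *Adamts9*, with 1.98 to 2.94 CPM in controls, 1.81 and 1.82 CPM in M893 and M909, and 1.14 and 1.03 CPM in M901 and M902. Its log2 fold change was -0.79 over all mice and -0.48 without M901 and M902, and 12% of its exon bases are shared with genes on the opposite strand.

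Of 13 genes of hyaluronan synthesis, turnover and uptake, 2 were lower and 0 higher. The shares of all genes, for this and the lists below, were 6.87% lower and 6.42% higher. The hyaluronan receptor *Lyve1* did not overlap between groups (13.84 to 14.99 CPM in controls, 11.71 to 13.82 CPM in Rbfox2 KD), and the scavenger receptor *Stab1* was lowest in M901 and M902 (2.12 and 2.17 CPM, against 3.14 to 5.48 CPM in the others). *Tnxb*, the tenascin of connective tissue, had 13.6 to 21.4 CPM in controls and 11.0 to 13.9 CPM in Rbfox2 KD. Among 6 genes of *Ptprz1* ligands and other net components, the ligand midkine (*Mdk*) had a log2 fold change of -0.73 (unadjusted p = 0.0245, adjusted p = 0.316) with overlapping groups. It was -0.48 without M901 and M902, and -0.42 without M898 (unadjusted p = 0.0818). The surface partners of tenascins and chondroitin sulfate had 1 lower (*Egfr*, -0.36) and 1 higher (*Rtn4rl2*, a Nogo receptor homologue, 0.16) of 19. In the interphotoreceptor matrix, the hyaluronan-binding coat of rods and cones, *Impg1* (0.12) and *Impg2* (0.19) were higher and *Rbp3* did not pass, while the 5 summed rod markers were at 57070 to 61470 CPM in controls and 59490 to 64620 CPM in Rbfox2 KD. The 5 summed cone markers were at 808.1 to 820.5 CPM in controls and 861 to 984.9 CPM in Rbfox2 KD.

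**Figure D5:**
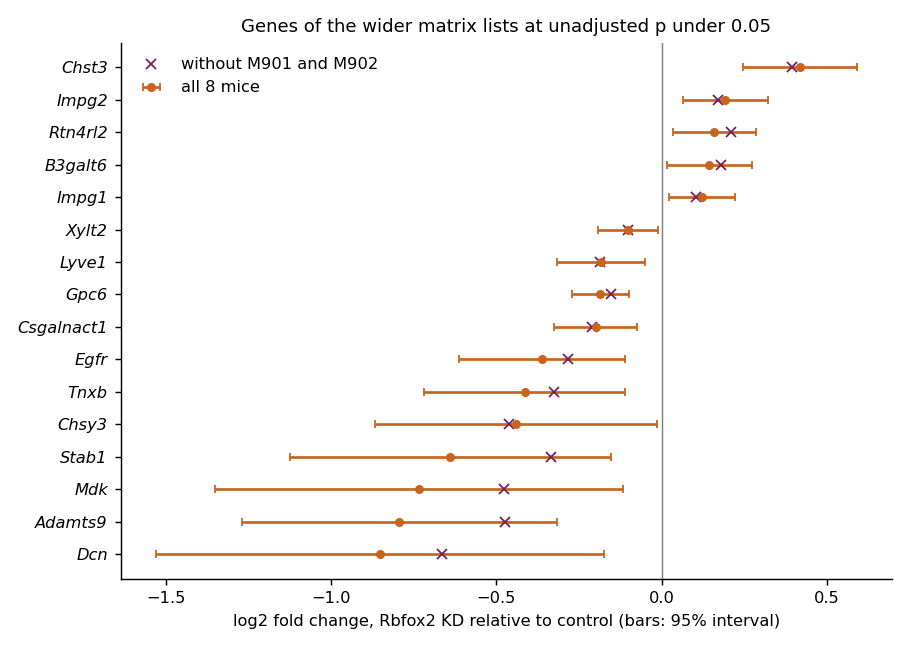
Log2 fold change of Rbfox2 KD relative to control (horizontal axis) for the 16 genes of the functional lists with an unadjusted p under 0.05, with 95% intervals over all 8 mice (orange) and the value without M901 and M902 (purple crosses). *Chst3* is the highest at 0.42, and the values of *Stab1*, *Mdk* and *Adamts9* move towards 0 without the 2 mice.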

How the data were processed

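Retinal RNA of 8 mice was sequenced by the authors, who aligned reads to mm10 with STAR, kept unique alignments and counted them per gene with HTSeq. CASAVA 1.8.2 is named in the submitters' processing notes. The deposited counts are not normalized, and the table lists 17500 genes that reach 5 or more counts in 4 or more mice. The deposited FPKM are per length and library, by the authors. Columns with the authors' fold changes, p-values and normalized values were not used. Counts were filtered with filterByExpr, scaled by TMM and compared with the quasi-likelihood test of edgeR 4.0.16 (R 4.3.3), Benjamini-Hochberg adjusted over 16797 genes. Alternatives were DESeq2 1.42.0, limma-voom (limma 3.58.1), the likelihood ratio test, RLE and upper-quartile scaling, no filter, at least 10 counts in every library, each mouse left out, M901 and M902 left out, and 1 surrogate variable (sva 3.50.0). The procedure was tested on simulated data. No libraries were duplicates, and p-values measure the spread between these mice.

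The members and lists were chosen with earlier results of these data known. Named are the 9 members, list genes with an unadjusted p under 0.05, link proteins beside lecticans, the 2 genes varying most like each member (1 for *Bcan*; the other and some sequence copies are not reported here), and markers. The symbols *Cemip2* and *Tmem2* are 1 gene listed under both names. Marker lists were summed as CPM per mouse. Elements were read from GENCODE M21 transcripts, and the exon length comparison was chosen after seeing the data.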

Additional observations from a re-analysis of the deposited data

Results flagged for a closer look

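In groups of 4, a mouse is singled out when its gap to the nearest other is a larger part of the group's whole range than Dixon's test at the 95% level allows. Of 50 groups examined over the named genes, 3 had such a mouse, where chance gives about 1 in 20, or 2.5. *Egfr*, a receptor for epidermal growth factor, was low in the control M894, at 15.6 CPM against 20.7 to 21.6 CPM in the other 3 controls (gap 0.859 of the range). The same gene was high in the Rbfox2 KD mouse M909, at 18.2 CPM against 14.3 to 14.5 CPM (gap 0.949). *B3galt6* was also high in M909, at 19.5 CPM against 17.4 to 17.7 CPM (gap 0.836). None of the 9 matrix genes had a mouse singled out in this way. *Vcan* has M901 and M902 low together, which a gap to the nearest mouse does not pick up.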

How the results depend on the processing

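*Tnr* was lower under all 17 alternatives, with log2 fold changes from -0.29 to -0.20, and adjusted p-values from 0.00283 (DESeq2) to 0.621. The number of members with an adjusted p under 0.05 went from 0 to 1 with DESeq2 and to 1 with the likelihood ratio test. Members lower at an unadjusted p under 0.05, 1 in the quasi-likelihood test, were 2 with limma-voom (*Vcan* added), 3 with the likelihood ratio test (*Acan* and *Vcan*) and 1 to 4 with a mouse left out, namely 2 without M833 (*Acan*) and 4 without M909 (*Acan*, *Vcan* and *Ptprz1*). All genes with an adjusted p under 0.05 numbered 460 with DESeq2, 164 with the likelihood ratio test, 1 without M901 and M902, 5 with the surrogate variable and 5 to 35 with a mouse left out, against 11. Those with an unadjusted p under 0.05, in either direction, numbered 1027 without M901 and M902 and 1083 with the surrogate variable, against 2233. They numbered 2149 with limma-voom, 1684 with the likelihood ratio test, and 1491 to 2992 with a mouse left out. The highest were 2965 of 16887 without M833 and 2992 of 16840 without M909, so calls rose over all genes in these 2 fits. In the functional lists, the 11 lower genes became 4 without M901 and M902, 5 with the surrogate variable and 8 to 17 with a mouse left out (17 without M833), and the 5 higher genes 4 to 8 (8 without M909). *Tnc* reversed without M901 and M902 (-0.0066), with the surrogate variable (-0.012) and without M901 (range -0.026 to 0.068 with a mouse left out). *Bcan* (-0.073 to 0.12, below 0 without M833 or M893) and *Hapln4* (-0.12 to 0.079, above 0 without M896, M898 or M909) changed sign in the same way, and *Hapln1* was 0.012 with the surrogate variable. The cause of these moves was not tested. In all, 144 of 153 values of the members kept their direction. No paired analysis was possible because mouse numbers are not shared between the groups.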

Other observations

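After each group's mean was subtracted, the log2 CPM of each matrix gene over the 8 mice was set beside that of 13755 other tested genes with a mean of at least 1 CPM (13756 for *Acan*), and the genes with the highest Pearson correlation were listed. The points share library and depth, and the highest of so many correlations over 8 mice is large for any gene, so the values are a description. *Vcan* varied most like *Igfbp4* (0.996) and *Cntn3* (0.986), and *Tnr* most like *St3gal4* (0.966) and *Mlc1* (0.96). For *Tnc* they were *Usp29* and *Nrsn1*, both at 0.968, and for *Ptprz1* *Slc26a8* (0.989) and *Ccdc169* (0.984). *Bcan* varied most like *Begain* (0.989), *Ncan* like *Coro1a* (0.989) and *Fnbp1* (0.982), and *Acan* like *1500011B03Rik* (0.988) and *Rtca* (0.967). *Hapln1* varied most like *Tbx20* (0.987) and *Cast* (0.976), and *Hapln4* like *Ppap2c* (0.986) and *Ncoa4* (0.983).

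The 4 astrocyte markers summed to 38.0 to 40.3 CPM in controls and 33.6 to 39.3 CPM in Rbfox2 KD. The 9 retinal ganglion cell markers summed to 648 CPM in the control M833 and to 1032 to 1075 CPM in the other controls, against 812 to 1090 CPM in Rbfox2 KD. M833 had the highest *Tnr* (101 CPM) and the lowest *Bcan* (12.5 CPM) of all 8 mice, and among the controls also the lowest *Hapln1* and *Acan*. The 8 lens markers summed to at most 4.96 CPM in any mouse.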
